A study of Mus musculus with 2 samples.

Results

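Interleukins are secreted proteins by which leukocytes and stromal cells instruct each other, and each acts through receptor chains on the surface of the responding cell. The genes described here are those interleukins and interleukin receptor chains that 2 oligonucleotide arrays measured in RNA of mouse spleen. A gene was a member when its symbol in the platform annotation began with Il and a digit. Of the 12422 probe sets that were not array controls, 55 named a member, 53 of them with a single gene. They gave values for 45 of the 8251 named genes on the array, and where several single-gene probe sets read 1 gene, the one with the highest mean log2 value stood for it. A symbol with r or st after the number was counted as a receptor chain, which made 24 receptor chains and 21 ligands. This split is by name: Il1rn, a secreted antagonist of the interleukin-1 receptor, fell among the receptor chains, and Il18bp, a soluble protein that binds interleukin-18, fell among the ligands.

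Both arrays were hybridised with total RNA of spleen bought under 1 catalogue number, and they form 1 group of 2, array 1 and array 2. The labels name no strain, age, treatment or control, so no condition was compared and no p-value is given. Nothing in the labels says that the arrays came from separate animals or tubes, so the SD between them may be technical. Values are signal intensities on a linear scale as deposited, and the number of arrays limits their precision.

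An interleukin receptor is usually built from a chain that recognises 1 ligand and a partner chain that several ligands share. Class I and II cytokine receptors signal through JAK kinases and STAT transcription factors, whereas receptors of the interleukin-1 family signal through the adaptor Myd88 and IRAK kinases. In lymphoid tissue many receptor chains are carried by resting cells, while many T cell interleukins are transcribed only for a short time after a cell is activated. Whether this bears on the signals below was not tested.

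A gene was called bright when its signal exceeded the 60th percentile of the probe sets of its own array on both arrays, 346.32 on array 1 and 342.22 on array 2. The highest of 15 bacterial control probe sets, whose targets are foreign to mouse, gave 95 and 76.2 and served as background. Probes differ in how strongly they bind, so members are described against these limits and not ranked against each other. Bulk RNA also cannot tell fewer cells of a type from less RNA per cell.

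Few ligands were bright, and receptor chains were bright more often. Of the 21 ligands 4 were bright, against 45.2% of all named genes. Of the 24 receptor chains 9 were bright, or 37.5%, not far below the share of all named genes. On array 2 alone the shares were 45.8% and 47.6%. Taking the highest probe set can raise a gene with several, and 74.9% of all named genes had 1, as did 39 of the 45 members. With the probe sets of a gene averaged, 33.3% of receptor chains and 38.3% of all named genes were bright. The median log2 signal, with values below the 20th percentile of an array raised to it, was 5.54 for ligands, 7.64 for receptor chains and 8.29 for all named genes. The medians lay 2.10 ± 0.39 apart (SD of the per-array values, n = 2), with 1.79 on array 1 and 2.34 on array 2. The ligand at the median lay at or below the bacterial controls on both arrays, so this difference has no exact size. With every value raised to the highest bacterial control of its array, the receptor chains were higher by at least 1.23 at the median of the 2-array means. The same bound was 0.85 on array 1 and 1.48 on array 2. These medians run over different probe sets, and no test was made.

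The lower limit gave the same picture. The bacterial controls were exceeded on both arrays by 8 ligands and 16 receptor chains, 38.1% and 66.7%, against 73.9% of all named genes. At or below them on both arrays lay 11 ligands and 5 receptor chains, 52.4% and 20.8%, against 19.0% of all named genes. The remaining 2 ligands and 3 receptor chains passed on 1 array. For members at or below the controls the data give an upper bound on the signal of the probe set used, not a level. They do not bound the RNA itself, since probe sets of 1 gene can differ widely, as those of Il4ra did (means of 973.65 and 124.3).

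**Figure D1:**
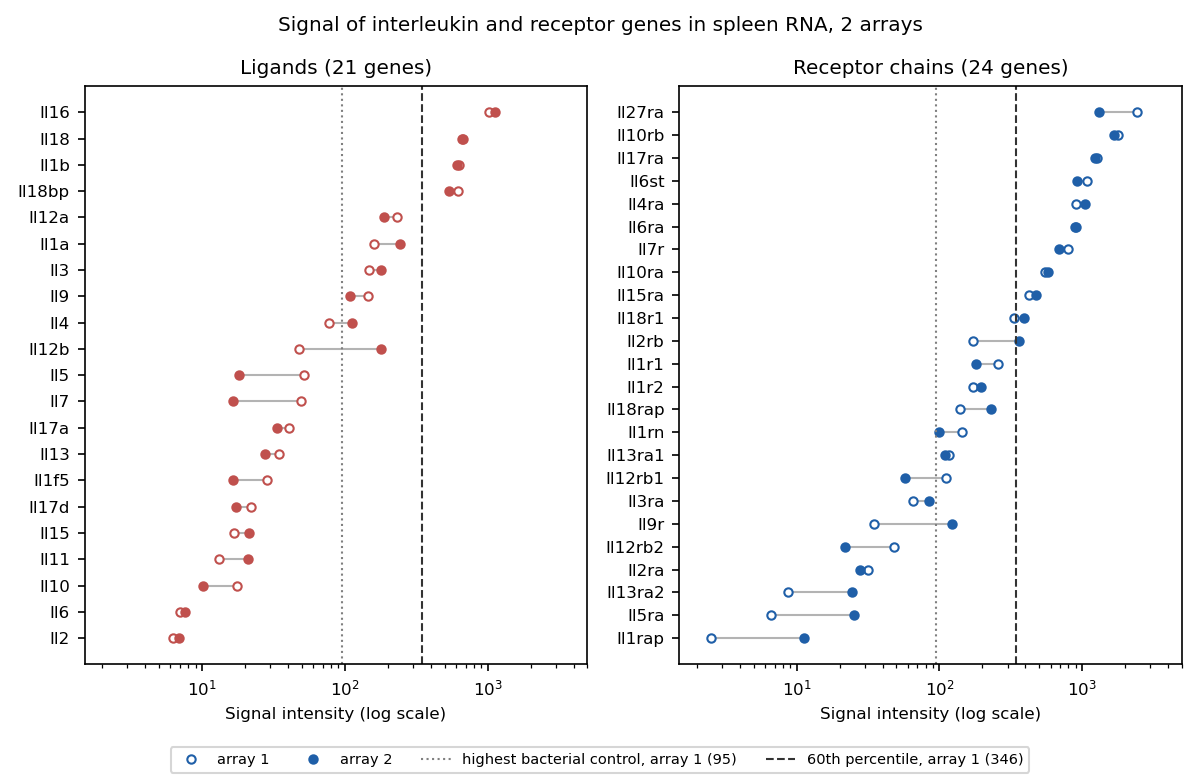
Signal intensity of the 21 ligands (left) and 24 receptor chains (right) on a log axis, open points for array 1 and filled points for array 2; the dotted and dashed lines mark the highest bacterial control (95) and the 60th percentile (346.32) of array 1. Of the ligands 4 lie right of the dashed line on both arrays and 11 lie left of the dotted line on both, whereas 9 receptor chains lie right of the dashed line.

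The 4 bright ligands included 2 inflammatory cytokines of the interleukin-1 family and an inhibitor of one of them. Il1b, the fever-inducing cytokine of macrophages and neutrophils, gave 633.8 on array 1 and 609.7 on array 2, or 622 ± 17.04 (SD, n = 2 here and below). Il18, which is stored as a precursor and drives interferon-gamma production, gave 657.6 and 670.6, or 664 ± 9.19. Both cytokines were steady between the arrays. Il16, a chemoattractant for cells with CD4, gave 1025.0 and 1127.3, or 1076 ± 72.3. Il18bp, the soluble inhibitor of interleukin-18, gave 620.0 and 536.4, or 578 ± 59.1. All 8 of these values lay above both limits, and no pair was more than 1.16-fold apart. Il1b and Il18 are both cut into active form by caspase-1, whose gene Casp1 was bright at 439 ± 31.0.

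The growth and helper factors of T cells were not bright. Il2, the T cell growth factor, gave 6.2 and 6.9, below the median of the bacterial controls on either array (20.6 and 22.9). The type 2 cytokines Il5 and Il13 gave 51.5 and 18.0, and 34.8 and 27.5, all at or below the controls. Il17a, the cytokine of Th17 cells, gave 40.8 and 33.7. Above both controls but below the cutoff lay Il3, a growth factor of myeloid cells, at 147.1 and 179.0, and Il9 at 145.3 and 108.1. Il4, which directs B cells to IgE and IgG1, gave 77.7 and 112.4 and passed the controls on array 2 only. Of these 7 genes, grouped after their values were seen, 0 were bright and 4 lay at or below the controls on both arrays, beside 45.2% and 19.0% of all named genes.

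Several cytokines known from myeloid and stromal cells also lacked a bright call, unlike Il1b and Il18. Il6, an inducer of the acute phase, gave 7.0 and 7.6, and Il10, which restrains macrophages, gave 17.6 and 10.1. Il7, a survival factor that stromal cells make for lymphocytes, gave 49.6 and 16.5, and Il15, which sustains natural killer and memory T cells, gave 16.6 and 21.2. All 8 of these values lay at or below the controls. Both chains of interleukin-12 passed the controls on at least 1 array: Il12a gave 232.6 and 188.1, above both controls, while Il12b gave 48.0 on array 1 and 179.3 on array 2. Il1a, the second interleukin-1 agonist, gave 159.4 and 242.3. The other ligands at or below the controls on both arrays were Il11, Il17d and Il1f5, with values from 13.2 to 28.6.

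Of 8 receptor chains that several ligands share, listed after the values were known, 4 were bright, which is near the 45.2% of all named genes. Il6st, which encodes gp130 and transmits interleukin-6 and interleukin-11, gave 1085.0 and 921.0, or 1003 ± 116. Il10rb, the second chain of the receptors for interleukin-10 and interleukin-22, gave 1767.7 and 1682.2, or 1725 ± 60.5. Both are joined by binding chains that were bright as well. Il17ra, used by several interleukin-17 cytokines, gave 1265.5 and 1225.7, or 1246 ± 28.1. Il4ra, which serves interleukin-4 and interleukin-13, gave 898.5 and 1048.8, or 974 ± 106. All 8 values of these chains lay above the cutoff, and none of the pairs was more than 1.18-fold apart. The 4 shared chains that were not bright were Il2rb, Il12rb1, Il13ra1 and Il1rap.

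The ligand-recognising chains that were bright sit mainly on lymphocytes and myeloid cells. Il7r, the interleukin-7 receptor of T cells and lymphoid precursors, gave 790.8 and 684.5, or 738 ± 75.2. Il6ra, which binds interleukin-6 ahead of gp130, gave 906.6 and 885.1, or 896 ± 15.2. Il10ra, the binding chain for interleukin-10, gave 553.0 and 574.8, or 564 ± 15.4. These 3 chains were past the cutoff on both arrays. Il15ra, which presents interleukin-15 to neighbouring cells, gave 421.6 and 471.6, or 447 ± 35.4, nearer to the cutoff. Il27ra, the receptor of interleukin-27 on T cells, gave 2401.3 and 1316.9, or 1859 ± 767. That last pair is 1.82-fold apart, the widest gap of any bright member.

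Of the receptor chains, 2 were past the cutoff on array 2 alone. Il18r1, the binding chain for interleukin-18, gave 331.4 and 391.2, on either side of the limit. Il2rb, the signalling chain for interleukin-2 and interleukin-15, gave 171.0 and 358.5. The other chains that exceeded the controls on both arrays were Il13ra1, Il18rap, Il1r1, Il1r2 and Il1rn. Il1r1, the signalling receptor for interleukin-1, gave 257.9 and 179.7, and Il1r2, its decoy, gave 172.0 and 196.6. Il1rn gave 142.9 and 99.9.

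The chains at or below the controls on both arrays included Il2ra, which encodes CD25, the high-affinity interleukin-2 receptor chain of activated and regulatory T cells, at 31.8 and 27.9. Il1rap, the accessory chain without which the interleukin-1 receptor does not signal, gave 2.5 and 11.2. Il5ra, the interleukin-5 receptor of eosinophils, gave 6.6 and 25.2, the decoy Il13ra2 gave 8.7 and 24.3, and Il12rb2, induced on Th1 cells, gave 47.9 and 21.7. Il12rb1, Il3ra and Il9r passed on 1 array each, with values from 34.9 to 123.3.

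The promoters of the members were set beside these levels as a description. RefSeq promoter windows of assembly GRCm38.p6 were found for 36 of the 45 members, 18 ligands and 18 receptor chains, and the 250 bases before each gene start were read. CpG dinucleotides, the letters CG, mark the promoters of widely expressed genes when they are dense. The median count per window, averaged where a gene had several, was 3 for ligands (quartiles 2 and 4), 6.17 for receptor chains (quartiles 4 and 17.75) and 14 for the 6572 named genes with a window. A count of 10 or more was found for 1 of 18 ligands and 8 of 18 receptor chains, against 66.8% of those genes. The word TATAAA, searched on both strands, was present for 6 ligands and 1 receptor chain, against 10.9% of the named genes and 12.4% of all 32841 windows. The arrays name no genome build, and a match describes letters, not a site in use.

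Among all named genes the bright ones had a median of 16 CpG and the others 12. Among receptor chains the median was 17 for the 5 bright ones with a window and 5 for the 13 others, and among ligands it was 3 for both the 4 bright and the 14 others. The bright receptor chains ranged from 1 to 26, with 1 CpG for Il7r, 7 for Il15ra, 17 for Il4ra, 18 for Il6ra and 26 for Il6st. The other receptor chains ranged from 1 to 30. They held the highest counts, 30 for Il1rap and 27 for Il3ra, and also Il13ra1 with 21. The 4 bright ligands had between 1 and 4. No test was made on so few genes.

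**Figure D2:**
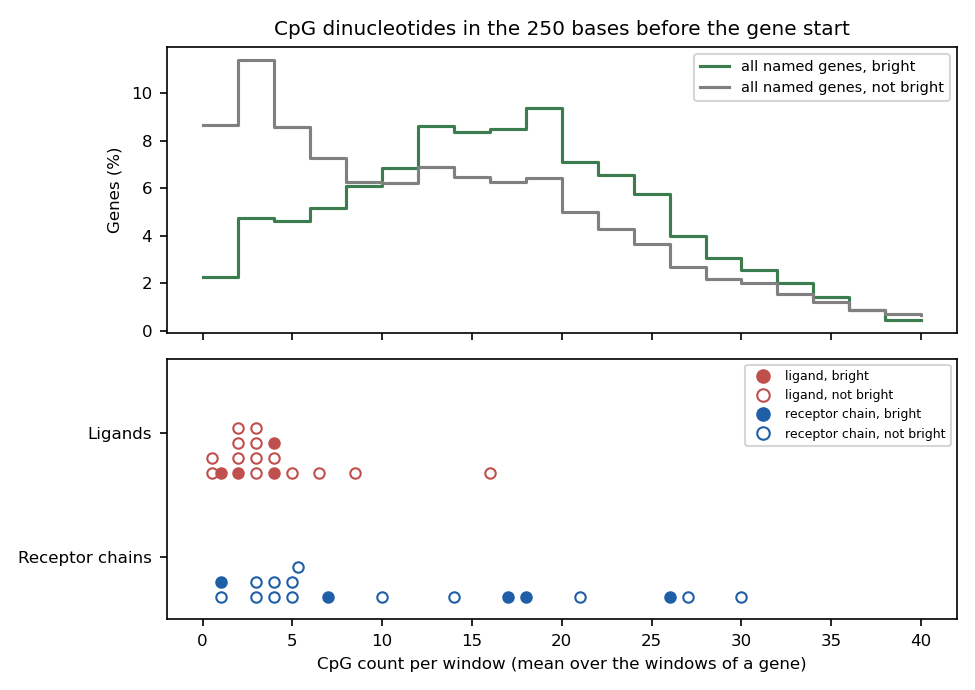
CpG dinucleotides in the 250 bases before the gene start. The upper panel gives the percentage of all named genes per bin of 2 counts up to 40, green for bright and grey for other genes; the lower panel gives 1 point per member with a window, filled where the gene was bright and stacked where counts coincide. Ligands lie at 16 or fewer with a median of 3, and receptor chains reach from 1 to 30.

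4 of these windows are shown for the contrast they hold, a ligand in the range of the controls (Il2) and a bright one (Il1b) with the same CpG count, and 2 bright receptor chains with many and few CpG (Il6st and Il7r). Each runs 5′ to 3′ towards the gene start, with CG and TATAAA in capitals.
Il2, chr3:37125955-37126204, minus strand: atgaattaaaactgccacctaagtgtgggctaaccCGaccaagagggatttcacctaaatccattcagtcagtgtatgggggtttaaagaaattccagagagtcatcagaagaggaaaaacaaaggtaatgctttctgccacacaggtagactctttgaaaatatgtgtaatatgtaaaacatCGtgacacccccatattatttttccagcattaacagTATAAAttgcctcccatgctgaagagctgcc
Il1b, chr2:129371140-129371389, minus strand: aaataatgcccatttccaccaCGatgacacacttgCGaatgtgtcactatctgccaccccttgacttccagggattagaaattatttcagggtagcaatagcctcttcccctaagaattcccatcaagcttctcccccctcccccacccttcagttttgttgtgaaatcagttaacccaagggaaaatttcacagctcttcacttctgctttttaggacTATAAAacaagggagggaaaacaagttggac
Il6st, chr13:112463820-112464069, plus strand: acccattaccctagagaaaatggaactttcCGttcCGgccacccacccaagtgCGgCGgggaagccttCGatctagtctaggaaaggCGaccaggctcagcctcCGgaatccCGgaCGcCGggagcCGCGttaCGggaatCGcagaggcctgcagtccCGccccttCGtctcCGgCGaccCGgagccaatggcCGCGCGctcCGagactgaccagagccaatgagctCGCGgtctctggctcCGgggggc
Il7r, chr15:9529877-9530126, minus strand: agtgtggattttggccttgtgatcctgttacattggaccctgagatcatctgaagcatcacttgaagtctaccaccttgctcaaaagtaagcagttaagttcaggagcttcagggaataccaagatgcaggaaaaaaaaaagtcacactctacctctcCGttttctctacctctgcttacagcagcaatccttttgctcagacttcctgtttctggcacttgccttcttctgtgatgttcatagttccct

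The windows of Il2 and Il1b both held 2 CpG and 1 TATAAA on the strand of the gene, whose first base lay 31 bases before the start in each. Their signals lay on opposite sides of the limits, with Il2 at 6.55 ± 0.49 and Il1b at 622 ± 17.04. The window of Il6st held 26 CpG in 66% G and C, and that of Il7r held 1 in 44%, and TATAAA was in neither. Both of those genes were bright on both arrays.

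Ligands and their receptors were then paired by textbook binding, with the pairs written after the values were known. Of 17 ligands with at least 1 measured chain, 8 were not bright while at least 1 of their chains was, and 2 were bright while no measured chain was. For 7 neither the ligand nor a chain was bright, and for 0 were both. Only 2 of these 17 ligands were bright, beside 45.2% of all named genes, so no more than 2 could be bright together with a chain. The 0 is therefore not read as a mismatch of ligands and receptors. The 5 ligands whose measured chains were all bright while they were not were Il6, Il7, Il10, Il11 and Il17a, and the other 3 of the 8 were Il4, Il13 and Il15. The 2 bright ligands without a bright chain were Il1b and Il18, which belong to the interleukin-1 family. On array 2 alone Il18r1 and Il2rb also passed the cutoff, and then 9 ligands had a bright chain without being bright, 1 was bright without a bright chain, and for 1 both were. Pairs share chains, such as Il6st for Il6 and Il11, so these counts are not independent of each other.

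The families are small, and their counts stand beside the 45.2% of all named genes. In the interleukin-1 group 2 of 4 ligands and 0 of 6 chains were bright on both arrays. Those 6 include the antagonist Il1rn, and Il18r1, which was past the cutoff on array 2. The interleukin-10, gp130-using and interleukin-17 groups had 0 of 1, 0 of 2 and 0 of 2 ligands and 2 of 2, 2 of 2 and 1 of 1 chains bright. In the group of the common gamma chain and interleukin-4 and interleukin-13, 0 of 6 ligands and 3 of 8 chains were bright, and the common gamma chain itself was not analysed here. Of the interleukin-12 group 0 of 2 ligands and 1 of 3 chains, and of the common beta chain group 0 of 2 and 0 of 2, were bright. Il16 and Il18bp were placed in no receptor family.

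Several members are neighbours in the genome, by the gene order of the same assembly, and their calls were set side by side. Il1a and Il1b lie next to each other, and Il1b was bright while Il1a was not. Il2ra and Il15ra are also adjacent, and Il15ra was bright while Il2ra lay in the range of the controls. The run Il1r2, Il1r1, Il18r1 and Il18rap held 0 bright genes of 4, though Il18r1 passed the cutoff on array 2. The type 2 cluster of Il4, Il13 and Il5 held 0 of 3, and Il1f5 with Il1rn held 0 of 2. Other protein-coding genes lie within some of these groups, 2 in the run, 1 in the type 2 cluster and 1 between Il1f5 and Il1rn. Such small counts say little beside the 45.2% of all named genes.

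Pathway genes without an interleukin name were bright in more than the background share when taken as a whole, but not in each of their lists. Their 43 entries, chosen with earlier results known, covered signalling genes, feedback inhibitors, and receptor chains and ligands with other names. Of these 31 were measured and 19 were bright, or 61.3%, again against the 45.2% of all named genes. Of 9 measured JAK and STAT genes 7 were bright. They included Jak1, which serves many of these receptors, at 3150 ± 335, Jak3, the partner of the common gamma chain, at 2364 ± 39.95, the interleukin-6 and interleukin-10 effector Stat3 at 1375 ± 34.2 and the interleukin-4 effector Stat6 at 1685 ± 25.3. The kinase Tyk2, at 508.0 and 158.4, and Stat5b, at 355.6 and 239.8, passed the cutoff on array 1 only. Of 6 genes of interleukin-1 receptor signalling and processing 4 were bright, among them the adaptor Myd88 at 529 ± 14.1 and the kinase Irak1 at 913 ± 36.6. Of 8 feedback inhibitors 4 were bright, close to the background share, including the phosphatase Ptpn6 at 2315 ± 42.4 and Socs1 at 649 ± 97.7, while Cish, a target of STAT5, gave 258 ± 31.3 and was not.

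Partner chains and related ligands with other names, already counted in the pathway list above, were bright in 4 of 8 measured cases, close to the share of all named genes. Ebi3, which joins the p28 chain to form interleukin-27, gave 590.8 and 683.2, and so was bright together with the receptor Il27ra. Csf2rb, the common beta chain for interleukin-3 and interleukin-5, gave 190.4 and 115.5, and its mouse relative Csf2rb2 gave 288.1 and 295.8; neither was bright. These 2 genes are close copies, so signal of 1 on the probes of the other cannot be told apart. Csf2ra, Lifr and Osmr were the other bright members of this list.

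**Figure D3:**
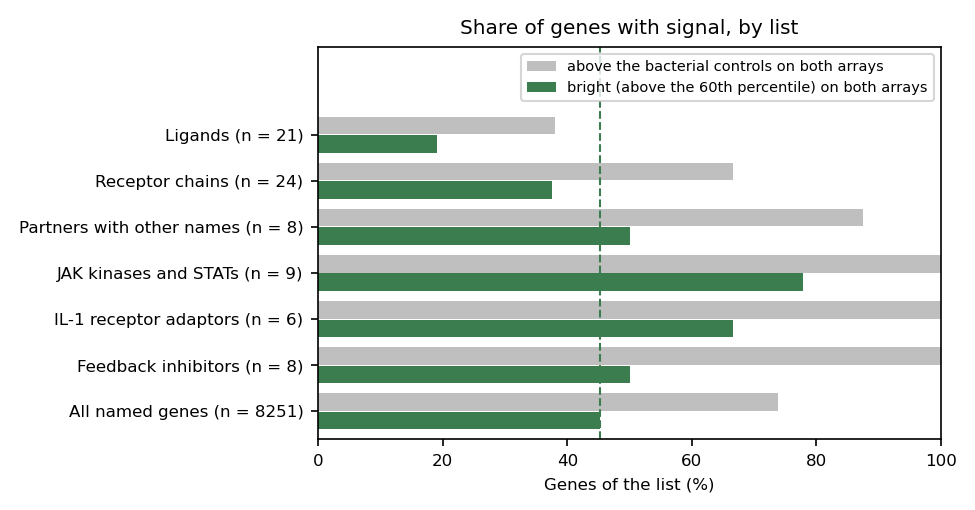
Percentage of genes above the bacterial controls (grey) and bright (green) on both arrays, for ligands, receptor chains, 4 pathway lists and all named genes; the dashed line marks the bright share of all named genes, 45.2%. Ligands (19.0%) and receptor chains (37.5%) lie left of the line, and JAK and STAT genes (77.8%) lie right of it. So do the genes of interleukin-1 receptor signalling and processing (66.7%), labelled as adaptors, which include Casp1. The other 2 lists, at 50% of 8 genes each, lie near the line.

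The arrays agreed closely on the bright members apart from Il27ra. Over the 13 bright members the pooled SD of log2 signal was 0.196, against 0.152 over 3731 bright named genes. Without Il27ra, left out after its gap was seen, it was 0.103. No gene was left out of the 0.152, so 0.103 is not set against it. The difference of Il27ra, array 2 minus array 1, was -0.87 on the log2 scale, and the next largest among bright members was 1.18-fold. Among bright named genes 1.53% were more than 1.5-fold apart, and Il27ra was the 1 such member. Of the bright members 5 were higher on array 2 and 8 on array 1.

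Dimmer members agreed less. The 11 members above the controls but not bright had a pooled SD of 0.370, against 0.311 over 2363 such genes. More than 2-fold apart were 1.48% of the named genes above the controls on both arrays, and 1 of 24 members, Il2rb, with a log2 difference of 1.07. Il27ra and then Il18rap, at 0.71, followed. Il12b and Il9r, which passed the controls on 1 array only, gave gaps of 3.74-fold and 3.53-fold, and values in this range do not give a level. With 2 arrays in 1 group none of these gaps has a test.

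**Figure D4:**
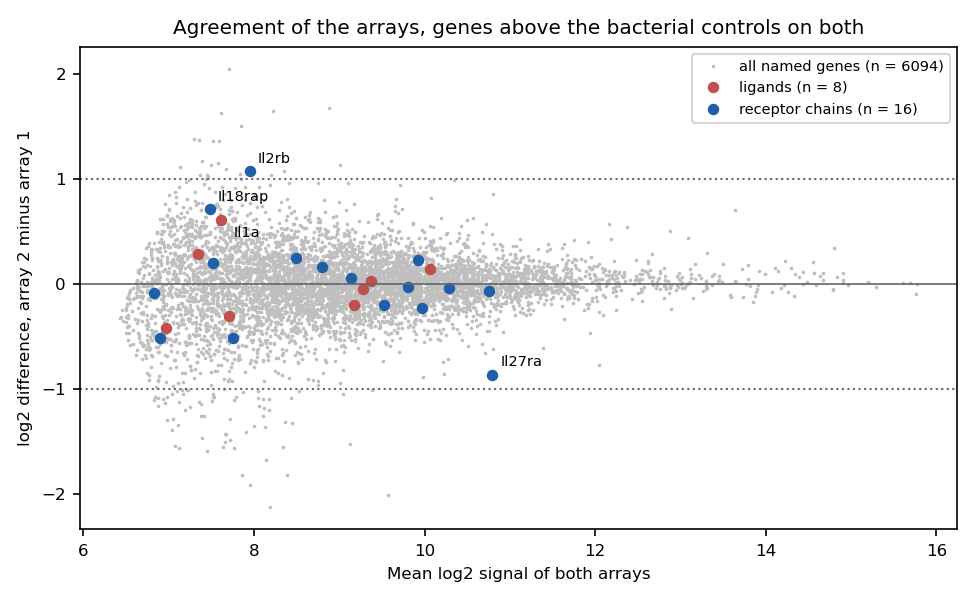
Log2 difference (array 2 minus array 1, centred) against mean log2 signal for the 6094 named genes above the bacterial controls on both arrays (grey), with 8 ligands in red and 16 receptor chains in blue; the dotted lines mark 2-fold. Il2rb lies above the upper line and Il27ra, at -0.87, is the bright member furthest from 0.

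For 6 members more than 1 probe set was present, and they did not always give 1 answer. Both probe sets of Il17ra were bright, at 1246 ± 28.1 and 656 ± 10.04, and so were both of Il6st, at 1003 ± 116 and 403 ± 2.12. Il4ra was bright by 1 probe set and gave 119.8 and 128.8 by the other, 7.83 times lower in the mean. The 2 probe sets of Il1r2 had nearly the same mean but moved apart: 1 gave 172.0 and 196.6, the other 257.1 and 121.6. Of the 4 probe sets of Il4, 3 lay at or below the controls on both arrays, and the value used here came from the remaining one, which carries the suffix _g_at of probe sets that may read several targets. Both probe sets of Il12rb1 were below the cutoff. The other 39 members rest on 1 probe set each, including 10 of the 13 bright ones.

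**Figure D5:**
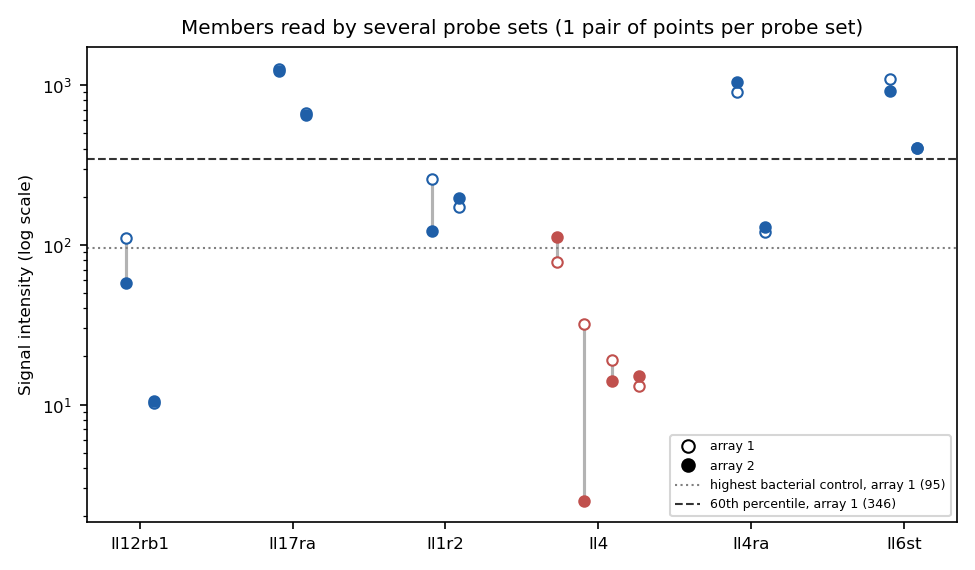
Signal intensity on a log axis for each single-gene probe set of the 6 members that have several, open points for array 1 and filled for array 2, Il4 in red and receptor chains in blue; lines as in the plot of all members. Il17ra and Il6st lie above the dashed line with both probe sets, whereas Il4ra does so with 1 of 2.

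Marker genes of the cells that carry these receptors were present in the RNA. Bright were 5 of 6 T cell, 4 of 4 B cell, 5 of 5 macrophage, 5 of 5 neutrophil and 1 of 3 natural killer cell markers, against 45.2% of all named genes, the resident classes of the labelled tissue. Of 6 mast cell and basophil markers 0 were bright and 3 lay at or below the controls on both arrays, where 19.0% of all named genes lay. Of the others, Kit gave 455.7 and 289.5 and passed the cutoff on array 1 only. Cma1, at 225.1 and 265.0, lay above both controls, and Cpa3, at 89.1 and 132.8, passed them on array 2 only. All 5 markers of pancreatic acinar cells were bright, with means from 4949 to 24153, and their part in the signals of the members was not tested.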

How the data were processed

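Spleen total RNA was measured on 2 arrays with 12488 probe sets, 66 of them controls. The authors deposited signal intensities, linear and not logged, of 1 value for each probe set on each array, from 0.1 to 59495.1. Trimmed means (2% cut at each end) of 500.265 and 500.278 show that both had been brought to 1 scale before deposit; the software was not given in the sources used here. Probe sets were named from the platform annotation. All 45 member gene IDs were found in the RefSeq table of GRCm38.p6, which served for names and gene order. Intensities were floored at the 20th percentile of each array (41.8 on both) for log2 values, and differences were centred on the median of bright probe sets. No test was run. The pooled SD and the call of a gap of more than 2-fold were checked on simulated arrays with 1 spread for all genes. That simulation did not check the bright calls or the calls against the bacterial controls. Genes were named by a rule: every bright member, those bright on 1 array, those furthest apart, and the main T cell and myeloid ligands and receptors. Members, lists and limits were chosen with earlier results of these data known. Alternatives covered the cutoff (50th or 75th percentile, bacterial controls), each array alone, the probe sets used, the roles of members, the floor (none, or a pseudocount of 16), quantile normalization and centring. Computations ran in Python 3.11.15 (pandas 2.3.3, numpy 2.4.6, matplotlib 3.10.9).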

Additional observations from a re-analysis of the deposited data

Results flagged for a closer look

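1 probe set named both Il4i1b and Il4i1, an amino acid oxidase gene induced by interleukin-4, and so entered no count. It gave 578.7 on array 1 and 485.2 on array 2, a mean of 532, above the brightness cutoff and the bacterial controls on both arrays. A group of 2 arrays allows no check for an outlying array.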

How the results depend on the processing

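The share of bright genes was higher among receptor chains than among ligands under all 10 alternatives run for these counts, by 14.3 to 29.1 percentage points. The 4 bright ligands became 2 at a cutoff of the 75th percentile, 8 when the bacterial controls set the cutoff, and 2 with Il1rn moved to the ligands and Il16 and Il18bp left out. The 9 bright receptor chains became 16 when the bacterial controls set the cutoff, and with the 75th percentile their share, 29.2%, stood beside 28.5% of all named genes. On each array alone 4 ligands and 9 to 11 receptor chains were bright, and the median difference was 1.79 to 2.34. That difference became 1.502 when probe sets naming several genes were used, which adds Il4i1 to the ligands. With values raised to the bacterial controls, an alternative added after seeing the data, it became 1.23, a lower bound for the 2-array means. This bound was 0.85 on array 1 and 1.48 on array 2. The median difference stayed within 1 SD of 2.10 under the other 8 alternatives. That SD was taken from the 2 single-array values, so these 2 of the 8 could hardly fall outside it and say nothing on stability. The count of bright ligands without a bright chain was 1 to 2 on each array alone. The pooled SD over bright members was 0.103 without Il27ra, an alternative chosen after seeing the data, and stayed within 1.5 times of 0.196 under the 10 others. Signals at or below the bacterial controls limit what can be said of 16 members.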

Other observations

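The array also holds control probe sets annotated with 2 of the ligands. That for Il10 gave 31.4 on array 1 and 39.3 on array 2, and that for Il4 gave 39.7 and 50.9. All 4 values lay below the highest bacterial control of their array.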
